A study of Mus musculus with 12 samples.

Results

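Undifferentiated mouse embryonic stem (ES) cells with the C48S change in the transcription factor Oct4 were compared with wild-type (WT) cells. The comparison used 6 of the 12 libraries of the series, chosen by title, 3 of each genotype. Both groups are Bl/6J ES cells, for which the labels name no other allele. They were grown with an inhibitor of the kinase MEK (PD, 1 µM), an inhibitor of the kinase GSK3 (CHIR, 3 µM) and ascorbic acid. The other 6 libraries were from both lines after 2 days in medium with retinoic acid (RA) at 1.5 mg/L and no LIF cytokine, and are used below as a second comparison of the lines. Their treatment field lists differing days, so they were grouped by title. All C48S titles carry the same number, 46, as 1 derived line, and WT is not named as its parent, so effects of C48S and of other traits of that line cannot be told apart. Whether a group's libraries are separate cultures is not stated, and p-values cover the spread of these libraries alone, which may be technical. In RNA from a whole culture, fewer cells of a type and less RNA per cell cannot be told apart.

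Oct4, the product of Pou5f1, is a POU-domain protein that binds octamer sequences together with Sox2 and sustains pluripotency. C48S replaces a cysteine by a serine, which removes a thiol group that oxidants can modify. ES cells in medium with MEK and GSK3 inhibitors resemble the naive epiblast: ERK signalling is held low, β-catenin is stable, and DNA methylation is low, a state in which many germ cell genes are not silenced. Such cultures also hold rare cells that express genes of the embryo at the cleavage stage.

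Library totals in the 6 libraries ran from 10084356 to 13597098 counts. Values are CPM (counts scaled by library size), and differences are log2 changes of C48S over WT with standard errors, from edgeR's quasi-likelihood test. Each standard error is the size of the change divided by the square root of the test's F statistic. Where a group had few counts, it can be smaller than counting error alone. Calls needed a p under 0.05 after Benjamini-Hochberg adjustment. C48S replicate 3 stood apart from replicates 1 and 2 (chi-square per degree of freedom 9.94 and 9.70, against at most 2.26 within any other pair of a group), and what set it apart was not tested. Genes of chromosomes 6, 8, 11 and Y were shifted as blocks, so all counts below leave them out unless they are named. Outside them 14689 genes were tested and 52.3% were called, 3698 higher in C48S (25.2%) and 3987 lower (27.1%). At 2-fold or more there were 1028 rises (7.0%) and 1413 falls (9.62%), and 55.5% of genes had WT and C48S libraries that did not overlap. Genes named below from a list are mostly those of its smallest adjusted p. That choice favours groups that do not overlap, so their separation is no further evidence. Over all chromosomes 55.6% of 17940 genes were called, and 9.97% were at least 2-fold lower. The median log2 change was -0.0036, with quartiles of -0.41 and 0.39. Large differences leaned towards lower levels: 253 genes were at least 4-fold higher and 651 at least 4-fold lower, and at 16-fold the numbers were 22 and 176. The shares of 2-fold calls depended on the level of the gene. They were 11.9% higher and 14.2% lower between 1 and 10 CPM, and 1.44% and 2.42% above 100 CPM. Calls at any fold went the other way, from 24.2% of genes under 1 CPM to 68.5% of those above 100 CPM. For lists of abundant genes, the shares called over all genes are therefore a low background. On the X chromosome 98 of 611 genes were at least 2-fold lower and 33 higher.

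Both groups carried the transcripts that define ES cells. The 20 tested ES cell identity genes, on all chromosomes, summed to 8523 to 8803 CPM across WT and 8097 to 8521 CPM in C48S. In GRCm39 coordinates, as used for all genes here, Pou5f1 lies at chr17:35816915-35821669. Its level was 587, 579 and 589 CPM in the WT libraries and 512, 505 and 653 CPM in the C48S libraries. The change was -0.072 ± 0.071 (adjusted p = 0.411), and without C48S replicate 3 it was -0.20 and passed the test. The libraries of the groups overlapped in no order, with replicate 3 above WT and the other two below. C48S is a change of the protein, so the mRNA level does not check the labels. Markers of other cell types, also on all chromosomes, differed between the lines in several lists. Summed trophoblast markers were at 341 to 365 CPM across WT and 489.9 to 547 CPM in C48S. Neuroectoderm markers were at 228 to 235 CPM across WT and 174 to 198 CPM in C48S, and primitive endoderm markers at 1895 to 1928 CPM across WT and 1574 to 1664 CPM in C48S. None of these 3 sums had overlapping groups. Fibroblast and feeder markers summed to 3448 to 3639 CPM across WT and 3541 to 4417 CPM in C48S, with replicate 3 inside the WT range and the others above it. Blood and endothelial markers summed to 307 to 329.8 CPM across WT and 148 to 175 CPM in C48S. Of their 8 tested members 3 were called higher and 2 lower, with a median log2 change of 0.51. The lower sum therefore does not describe most members of that list. The part of such cells in the results below was not tested.

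The largest rises at 10 CPM or more included genes for a signalling inhibitor, a forkhead factor and an amino acid transporter. Spry4, which restrains signalling from receptor tyrosine kinases, was at 1.47, 1.34 and 1.19 CPM in the WT libraries and 76.7, 78.2 and 75.3 CPM in the C48S libraries (5.83 ± 0.14, adjusted p = 4.27e-28). The forkhead factor gene Foxd1 (chr13:98490750-98495813) was at 1.68, 2.94 and 2.82 CPM in the WT libraries and 61.9, 58.3 and 77.1 CPM in the C48S libraries (4.71 ± 0.15). Every C48S library lay far above every WT library for both genes. The X-linked glutamine transporter gene Slc38a5 was at 0.944, 0.924 and 0.651 CPM in the WT libraries and 16.97, 19.8 and 16.4 CPM in the C48S libraries (4.37 ± 0.21). Mapk4, an atypical MAP kinase, was at 1.68, 2.94 and 2.17 CPM in the WT libraries and 45.9, 41.0 and 43.8 CPM in the C48S libraries (4.23 ± 0.17). Hnf4a, a nuclear receptor of liver and visceral endoderm, was at 0.419, 0.756 and 0.868 CPM in the WT libraries and 12.9, 11.6 and 10.4 CPM in the C48S libraries (4.07 ± 0.25). None of these 5 genes had overlapping groups, as the rule that chose the largest rises and falls required. Over all genes tested 55.5% had groups that did not overlap. The phosphatase gene Dusp22 (4.07), Zbp1, a sensor of Z-form nucleic acids (3.88), Adam23, an adhesion protein of the ADAM family (3.76), and Tgm1, a transglutaminase of the cornified envelope (3.39), were also higher. So were Ccdc141 (3.52), Csrnp3 (3.31), Tnfsf9, the ligand of the receptor 4-1BB (3.27), the growth factor gene Bmp4 (3.19), the mitochondrial carrier gene Slc25a48 (3.10) and Eif4g3, a scaffold of translation initiation (3.12). Eif4g3 was the most abundant of the rises, at 18.04, 18.9 and 18.4 CPM in the WT libraries and 169, 167 and 147 CPM in the C48S libraries.

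Of the 15 largest falls among protein-coding genes, 6 were X-linked, and 4 of those belong to germ cell families. 1700013H16Rik (chrX:52744868-52759798) was at 43.2, 45.9 and 45.01 CPM in the WT libraries and 0.17, 0.107 and 0.207 CPM in the C48S libraries (-8.01 ± 0.19). Usp26, a deubiquitinase gene of the testis (chrX:50842836-50890110), was at 135, 143 and 136 CPM in the WT libraries and 3.14, 3.62 and 2.69 CPM in the C48S libraries (-5.45 ± 0.10, adjusted p = 1.83e-31). Dazl, which binds mRNA in germ cells, was at 315, 346 and 329 CPM in the WT libraries and 5.60, 8.95 and 6.51 CPM in the C48S libraries (-5.57 ± 0.089, adjusted p = 3.26e-32). Both genes went from an abundant to a scarce transcript in all C48S libraries. Rpl39l, a ribosomal protein gene enriched in the testis, was at 34.1, 33.8 and 36.1 CPM in the WT libraries and 0.424, 0.426 and 0.207 CPM in the C48S libraries (-6.56 ± 0.21). Neb, which encodes the thin filament protein nebulin, was at 77.4, 83.6 and 94.2 CPM in the WT libraries and 1.61, 0.959 and 0.724 CPM in the C48S libraries (-6.21 ± 0.15). Trim43a (-5.63), the cytochrome P450 gene Cyp2b23 (-5.82), the kinase gene Stk33 (-6.12) and Gm281 (-5.40) fell likewise. For 3 genes the C48S counts were too few for a fitted fold. Dcdc2a, of the doublecortin family, had 338 counts in WT and 1 in C48S, a ratio of 339.9 (95% counting interval 60.6 to 13466, the 1 count lying in replicate 1). Xlr3c had 574 and 2 counts (ratio 289, interval 79.5 to 2389) and Gm37596 367 and 2 (ratio 185, interval 50.7 to 1530). Such intervals cover counting error only. Standard errors of falls that rest on few C48S counts, such as the 5 of 1700013H16Rik, are smaller than counting error.

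**Figure D1:**
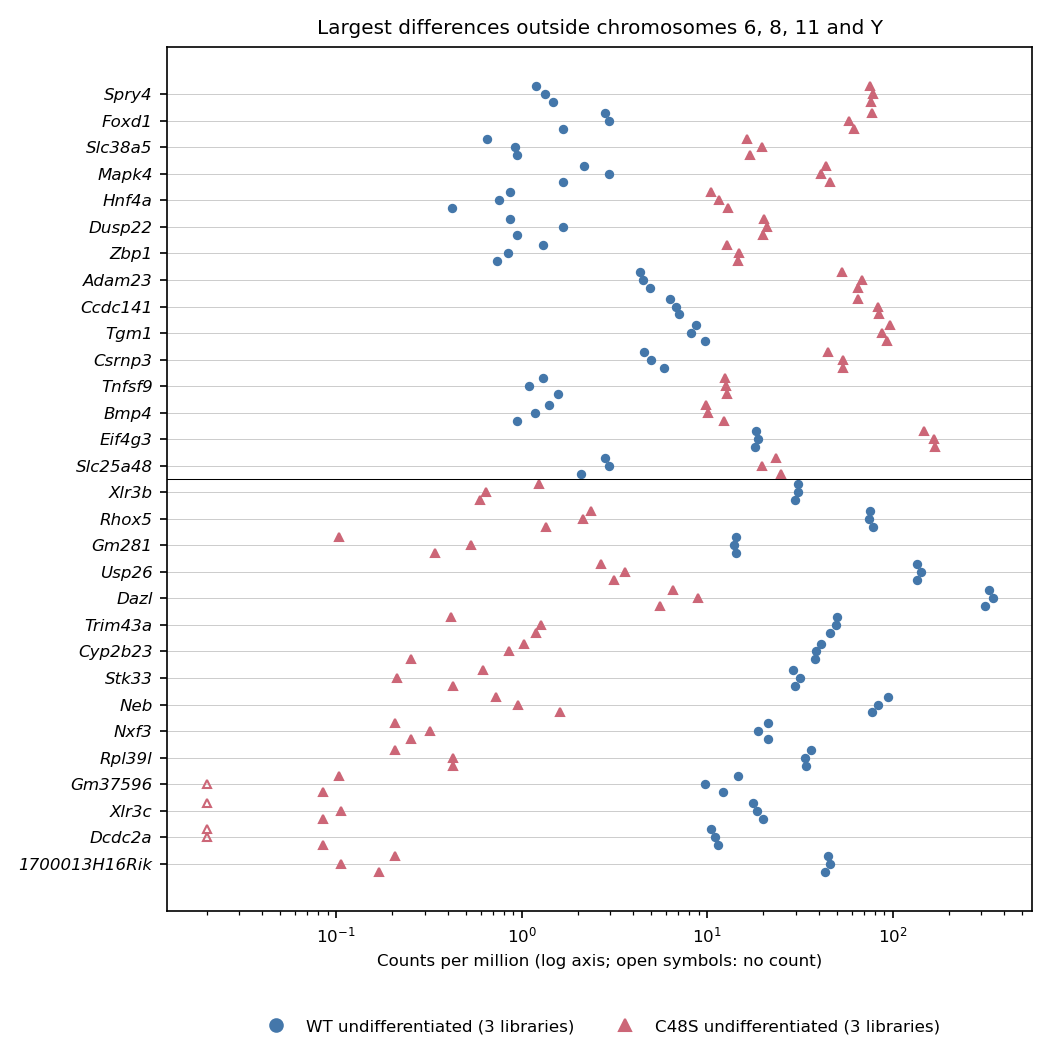
CPM (log axis) of the 15 protein-coding genes with the largest rises and the 15 with the largest falls outside chromosomes 6, 8, 11 and Y, at 10 CPM or more in the higher group. Circles are the 3 WT and triangles the 3 C48S libraries, with open triangles for libraries without a count. The groups do not overlap for any gene, by the rule that chose them, and the lines differ most in 1700013H16Rik among genes with a count in every library.

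X-linked germ cell families held many of the largest falls. The X-linked germ cell list, to which autosomal PRAME family genes were added, had 89 members, of which 41 passed the low-count filter. Of those 29 were lower and 3 higher, and 25 (61.0%) were at least 2-fold lower, against 9.62% over all genes. The median log2 change was -3.74, or -2.59 with the 7 members without a count in a group set at their bound. All 9 tested Xlr genes, whose products are related to the synaptonemal complex protein Sycp3, were at least 2-fold lower. Together they were at 120.5, 125 and 117 CPM in the WT libraries and 3.22, 2.24 and 3.83 CPM in the C48S libraries. Xlr3b (chrX:72235813-72246536) was at 29.7, 30.9 and 30.7 CPM in the WT libraries and 0.594, 0.639 and 1.24 CPM in the C48S libraries (-5.21 ± 0.19), and Xlr3a was at 45.6, 48.9 and 47.4 CPM in the WT libraries and 1.78, 1.28 and 1.76 CPM in the C48S libraries (-4.86 ± 0.14). Members enter the count through the libraries in which they are high, so it describes the 41 and not all 89. Reads in the Xlr, Rhox2, Magea and Pramef families can map to near-identical copies, so their single members are uncertain and the family sum is the safer value.

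Of the 8 tested Rhox genes, reproductive homeobox factors of the X chromosome, 5 were at least 2-fold lower and none higher. Rhox5 (chrX:36891636-36897311) made up most of the family and was at 78.3, 74.1 and 75.6 CPM in the WT libraries and 1.36, 2.13 and 2.38 CPM in the C48S libraries (-5.30 ± 0.12, adjusted p = 2.6e-28). Rhox2a had 82 counts in WT and none in C48S, at least 27.5-fold lower with the C48S group set at a floor of 3 counts in all. Rhox9 (-0.039) did not pass the test, nor did Rhox6 (0.45), which was called at 1.08 without WT replicate 2. The 3 tested Nxf genes, relatives of the mRNA export factor Nxf1, were each lower, led by Nxf3 at 21.2, 18.8 and 21.1 CPM in the WT libraries and 0.255, 0.32 and 0.207 CPM in the C48S libraries (-6.23 ± 0.27). Magea5, of the melanoma antigen family, was without a count in C48S, at least 50.3-fold lower, and Magea8 had 106 counts in WT and 1 in C48S. Relatives that many tissues express changed less: Maged1 fell (-0.56), Mageh1 rose (1.02) and Maged2 (0.11) did not pass the test. Among the Pramel and Pramef genes 6 of 9 were lower, among them Pramel6 (79.6 ± 3.53 CPM in WT against 2.95 ± 1.57 CPM in C48S) and Pramel7 (87.8 ± 3.01 CPM in WT against 5.51 ± 1.24 CPM in C48S), leucine-rich proteins of the early embryo, whereas Pramel1 rose (0.78). The member with the largest rise was Fthl17a, a ferritin-like gene, with no count in WT and 11 in C48S (at least 3.65-fold higher). The other tested Fthl17 copy fell (-3.74), and the 2 summed to 1.57, 2.44 and 1.52 CPM in the WT libraries and 0.17, 0.639 and 0.724 CPM in the C48S libraries. The 2 rises of at least 2-fold in the list (Fthl17a and Mageh1) were 1 without C48S replicate 3 or WT replicate 1.

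**Figure D2:**
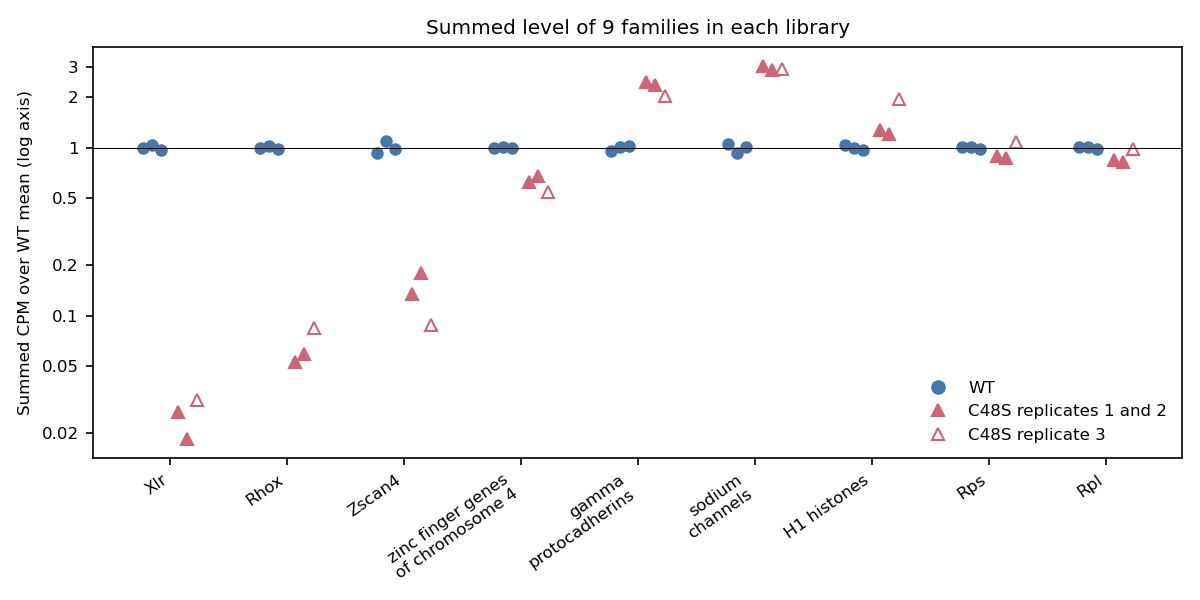
Summed CPM of 9 gene families in each library, divided by the WT mean of the family (log axis). Circles are WT libraries, filled triangles C48S replicates 1 and 2 and open triangles C48S replicate 3. Xlr and Rhox sums lie far below WT in each C48S library, gamma protocadherin and sodium channel sums lie above it, and replicate 3 differs from the others for H1 histones and ribosomal proteins.

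Genes of the 2-cell-like state, expressed at zygotic genome activation, were lower in C48S. Of 24 tested members 19 were at least 2-fold lower and none was higher, with a median of -2.85 (-2.72 with 2 members at their bound). Summed over the 25 tested members on all chromosomes they were at 68.7 to 77.7 CPM across WT and 17.4 to 18.1 CPM in C48S. The 8 tested Zscan4 copies, factors of telomere maintenance, all fell, and their sum was at 16.5, 19.4 and 17.4 CPM in the WT libraries and 2.38, 3.20 and 1.55 CPM in the C48S libraries. The sum of the Usp17l deubiquitinase genes, of which 4 of 5 fell, was at 4.82, 5.37 and 4.77 CPM in the WT libraries and 0.849, 0.746 and 0.827 CPM in the C48S libraries. Zscan5b (-2.68) and the double-homeobox gene Duxbl1 (-1.39) fell too. Both families are near-identical copies. Most members are scarce in undifferentiated cells and passed the filter through the RA libraries: 9 were tested in a fit of the 6 undifferentiated libraries alone, and all of those were at least 2-fold lower.

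Germ cell genes of other kinds fell in part. In the germ cell and meiosis list 35 of 39 members were tested, of which 18 were lower and 5 higher, and 12 (34.3%) were at least 2-fold lower (median -0.53). Among chromosome axis genes, Smc1b, a cohesin subunit of meiosis, was at 17.9, 18.6 and 17.8 CPM in the WT libraries and 1.02, 1.28 and 1.24 CPM in the C48S libraries (-3.94 ± 0.19). Hormad1, a protein of unsynapsed axes (chr3:95466988-95494982), was at 49.3, 51.9 and 47.9 CPM in the WT libraries and 12.5, 15.3 and 15.1 CPM in the C48S libraries (-1.81 ± 0.10). Neither gene had overlapping groups, as was so for 55.5% of all genes tested. Sycp3 (0.36) and the recombinase gene Dmc1 (0.0076) did not pass the test. Brdt, a testis bromodomain protein (chr5:107479025-107534924), was at 31.7, 37.5 and 38.2 CPM in the WT libraries and 3.22, 2.13 and 2.27 CPM in the C48S libraries (-3.78 ± 0.14). Regulators of germ cell fate and small RNA pathways went both ways. Sohlh2 (-1.08), Nanos1 (-1.19) and Tdrd12 (-0.84) fell, and Piwil2 (0.53), Tdrd5 (0.72) and Tdrd1 (1.80) rose. Among oocyte genes 12 of 36 were tested, 8 lower and 3 higher. Obox6, an oocyte homeobox gene, was at 143 ± 4.72 CPM in WT against 30.8 ± 2.10 CPM in C48S (-2.21 ± 0.071) and Ooep, of the subcortical maternal complex, at 116 ± 8.10 CPM in WT against 46.0 ± 4.34 CPM in C48S. Khdc3, of the same complex, went the other way (10.5 ± 1.21 CPM in WT against 49.99 ± 7.25 CPM in C48S, 2.25 ± 0.12). Nlrp4c fell (-5.17) and its relative Nlrp4f rose (0.82), in a family of close copies.

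Promoters of germ cell genes often hold the E-box CACGTG, a palindrome bound by MYC, MAX and the repressor MGA. The 250 bases before the start were taken from RefSeq (build GRCm38.p6) for 32 of the 35 tested germ cell genes. The motif was present in 38.1% of their 42 promoters, against 7.97% of the 12566 promoters of all genes tested. By gene, 4 of 12 members that fell at least 2-fold had it (33.3%), and 10 of 20 other members (50.0%), so the share was not higher among those that fell. Brdt (chr5:107330944-107331193, plus strand) and Hormad1 (chr3:95559427-95559676, plus strand) are shown because they fell and carry it, with the E-box in capitals.
Brdt: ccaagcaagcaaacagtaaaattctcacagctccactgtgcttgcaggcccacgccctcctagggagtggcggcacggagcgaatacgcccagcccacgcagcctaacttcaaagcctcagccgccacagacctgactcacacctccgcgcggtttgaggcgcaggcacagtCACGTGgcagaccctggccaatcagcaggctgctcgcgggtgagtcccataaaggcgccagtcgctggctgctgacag
Hormad1: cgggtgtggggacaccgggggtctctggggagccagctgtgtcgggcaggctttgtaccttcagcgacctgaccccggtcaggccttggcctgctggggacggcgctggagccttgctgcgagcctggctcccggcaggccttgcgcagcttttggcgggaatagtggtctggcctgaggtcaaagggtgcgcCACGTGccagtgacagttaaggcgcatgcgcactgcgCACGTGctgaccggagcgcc
Hormad1 carries 2 copies, the nearest 15 bases before its start, and Brdt has a single one 73 bases before. The octamer ATGCAAAT that POU factors bind (searched on both strands) was in 1.24% of promoters of genes at least 2-fold higher, 1.98% of those at least 2-fold lower and 1.27% of all. Promoters of genes that changed held fewer CpG pairs than the median of 14 per 250 bases over all genes. The median was 8 for genes at least 2-fold lower and 5 for those at least 8-fold lower, and 11 and 8 for genes higher by those amounts. These sets were not matched for expression level, on which the 2-fold calls depended, so the part of level in this difference was not tested.

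Interferon-stimulated genes were higher in C48S. This list, of genes that interferon induces, had 32 of 41 members tested. Of these 22 were higher and 3 lower, and 14 (43.8%) were at least 2-fold higher, against 7.0% over all genes (median 0.91). In a fit of the 6 undifferentiated libraries alone 26 members passed the filter, 17 higher and 3 lower, with 10 at least 2-fold higher. Zbp1 (chr2:173048405-173060716), also among the largest rises, was at 0.734, 0.84 and 1.30 CPM in the WT libraries and 14.7, 14.8 and 12.7 CPM in the C48S libraries (3.88 ± 0.23, adjusted p = 1.45e-16). Among sensors of double-stranded RNA, Ddx58 (RIG-I) was at 42.3, 38.1 and 45.2 CPM in the WT libraries and 117, 123 and 109.9 CPM in the C48S libraries (1.48 ± 0.072). Ifih1 (MDA5) rose by 1.95, and the kinase gene Eif2ak2 (PKR) was at 21.3, 18.1 and 19.8 CPM in the WT libraries and 49.4, 50.8 and 41.1 CPM in the C48S libraries (1.26 ± 0.094). Each of the C48S libraries exceeded each of the WT libraries for these sensors, and 55.5% of all genes tested had groups that did not overlap. Adar, which edits double-stranded RNA, rose by 0.51. Among effectors, Isg15, a ubiquitin-like modifier, was at 0.105, 0.252 and 0 CPM in the WT libraries and 0.594, 0.639 and 1.03 CPM in the C48S libraries (2.42 ± 0.69) and the radical SAM enzyme Rsad2 at 0.315, 0.252 and 0.217 CPM in the WT libraries and 1.44, 0.852 and 1.14 CPM in the C48S libraries (2.11 ± 0.52). The Isg15 change was 3.55 without WT replicate 2. The tetratricopeptide genes Ifit1 (0.526 to 2.86 CPM) and Ifit2 (0.192 to 1.82 CPM) and Ifi44 (0.17 to 1.72 CPM) rose from low levels. Ifitm3 (105 to 205 CPM) and Ifitm1 (80.2 to 188 CPM), membrane proteins that ES cells express, were the abundant members. Of the transcription factors, Irf9 (0.17) did not pass the test. Irf7 was called at 1.34 with all libraries and not without C48S replicate 2 (1.23) or WT replicate 1 (1.06). Stat2 was not called (0.18), but was at 0.26 without C48S replicate 3 and at 0.25 without WT replicate 1. Ifitm7 fell (-1.20), and the other lower members, Ifi27 (-0.72) and Oas1a (-0.36), lost their calls without C48S replicate 2 (-0.58 and -0.29), Oas1a also without WT replicate 2 (-0.34).

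The interferon-stimulated response element (either strand) was found in 32.4% of the 34 promoters of these genes and in 2.28% of the 12566 promoters of all genes tested. By gene, it was in 6 of the 13 members that rose at least 2-fold and in 5 of the 14 others, against 2.80% of all genes. Isg15 (chr4:156200819-156201068, minus strand), Ifit1 (chr19:34640639-34640888, plus strand) and Rsad2 (chr12:26456453-26456702, minus strand) are shown, from RefSeq on GRCm38.p6, because they rose and carry it, with the matches in capitals.
Isg15: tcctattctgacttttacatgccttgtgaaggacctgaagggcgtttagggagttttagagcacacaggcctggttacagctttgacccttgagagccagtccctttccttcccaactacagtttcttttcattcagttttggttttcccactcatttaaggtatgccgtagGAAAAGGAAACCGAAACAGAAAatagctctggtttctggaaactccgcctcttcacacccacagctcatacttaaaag
Ifit1: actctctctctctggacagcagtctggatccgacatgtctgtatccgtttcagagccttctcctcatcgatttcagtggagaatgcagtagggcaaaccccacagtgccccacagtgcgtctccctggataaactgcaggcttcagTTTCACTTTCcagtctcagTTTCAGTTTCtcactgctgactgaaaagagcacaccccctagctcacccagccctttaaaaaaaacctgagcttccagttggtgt
Rsad2: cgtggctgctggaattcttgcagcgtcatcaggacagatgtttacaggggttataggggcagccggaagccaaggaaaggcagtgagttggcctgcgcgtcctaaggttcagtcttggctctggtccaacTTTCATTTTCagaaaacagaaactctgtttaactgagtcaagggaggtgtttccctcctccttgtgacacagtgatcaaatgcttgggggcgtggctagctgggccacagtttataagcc
In Ifit1 the nearest match lies 76 bases before the start, in Isg15 57 bases and in Rsad2 111 bases. Most genes of antigen presentation were not called. Of 25 tested members of the MHC class I list 7 were higher and 2 lower (1 without WT replicate 3). Tapbp, the peptide-loading chaperone tapasin, was at 35.4, 33.2 and 31.9 CPM in the WT libraries and 101, 93.8 and 106 CPM in the C48S libraries (1.58 ± 0.065), and B2m, the class I light chain, was at 33.9 ± 1.46 CPM in WT against 66.0 ± 0.417 CPM in C48S (0.96 ± 0.072). H2-D1 (0.70) rose, and H2-K1 (-0.014) and the transporter gene Tap1 (0.12) did not pass the test.

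**Figure D3:**
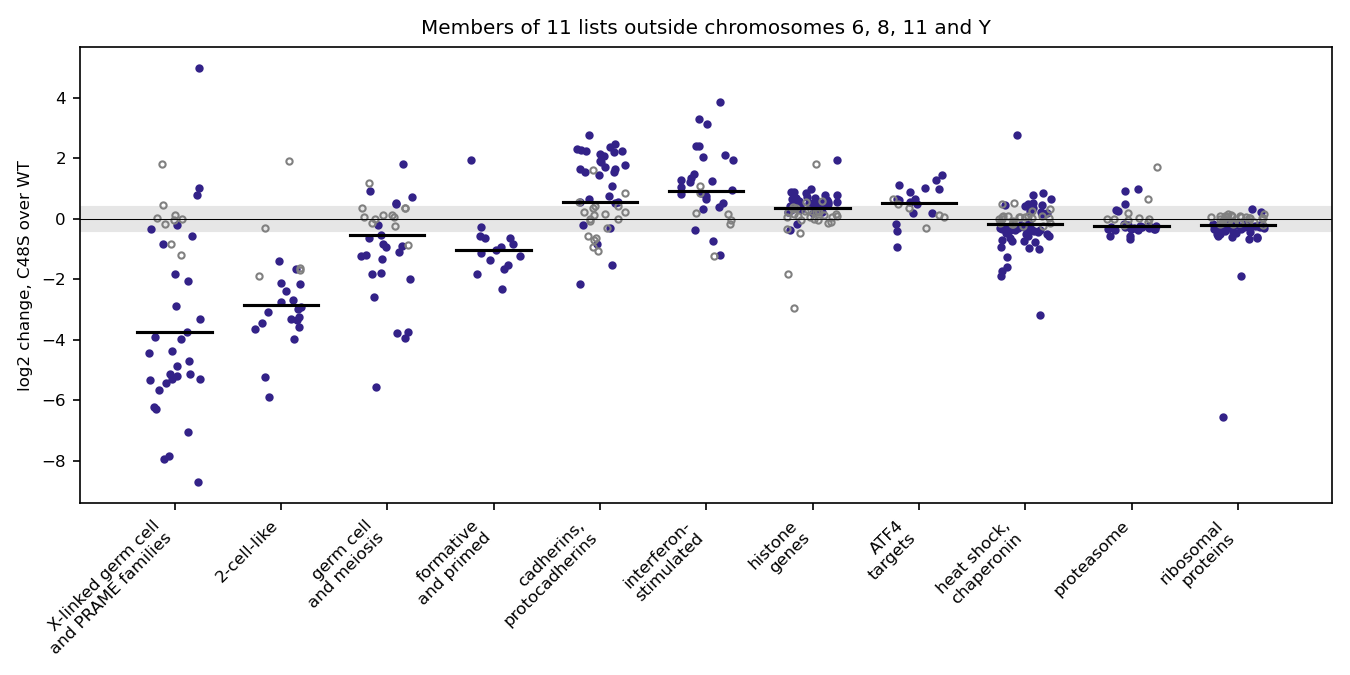
Log2 change of C48S over WT for each tested member of 11 gene lists outside chromosomes 6, 8, 11 and Y. Filled points were called, open points were not, bars are medians and the grey band spans the quartiles of all genes tested (-0.41 to 0.39). Points of the X-linked, 2-cell-like and formative lists lie mostly below the band and those of the interferon and cadherin lists mostly above it.

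Feedback genes of ERK signalling went both ways. The list had 16 members tested, 7 higher and 5 lower, with 5 at least 2-fold higher and 2 lower (median 0.35). Besides Spry4, the phosphatase Dusp6 was at 5.35, 4.70 and 4.99 CPM in the WT libraries and 19.6, 17.4 and 20.7 CPM in the C48S libraries (1.94 ± 0.11) and the inhibitor Spred1 at 29.3, 30.8 and 28.4 CPM in the WT libraries and 84.9, 102 and 90.7 CPM in the C48S libraries (1.64 ± 0.073). In both the C48S libraries were the higher ones. Etv1 (1.14), Phlda1 (1.03) and the ephrin receptor gene Epha2 (0.58) rose, while the X-linked phosphatase Dusp9 (-1.05) and the exchange factor Rasgrp1 (14.9 ± 0.901 CPM in WT against 2.02 ± 0.665 CPM in C48S, -2.90 ± 0.20) fell. Spry2 (-0.38) and Etv5 (-0.28) fell slightly. Immediate-early genes, transcribed within minutes of a stimulus, had 8 of 16 tested members higher and 1 lower (2 without C48S replicate 1), with 4 at least 2-fold higher. Egr1 was at 1.78, 0.756 and 1.84 CPM in the WT libraries and 6.28, 5.22 and 6.51 CPM in the C48S libraries (2.09 ± 0.23), and Fosb (1.49), Btg2 (1.17) and Fos (1.09) rose. Of the FGF ligands and receptors 22 of 28 were tested, with 3 at least 2-fold higher and 5 lower. Fgf10 (12.7 to 37.5 CPM) and Fgf2 (6.47 to 15 CPM) rose and Fgf3 fell (9.96 ± 0.592 CPM in WT against 0.541 ± 0.128 CPM in C48S, -4.15 ± 0.33), as did Fgf15 (-4.11) and the decoy receptor gene Fgfrl1 (-1.30).

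BMP, Nodal and Notch genes changed member by member. Bmp4 (chr14:46620977-46628126) was at 0.944, 1.18 and 1.41 CPM in the WT libraries and 12.3, 10.1 and 9.82 CPM in the C48S libraries (3.19 ± 0.22, adjusted p = 1.67e-14), and the BMP target Id1, an inhibitor of differentiation, at 15, 13.7 and 12.9 CPM in the WT libraries and 45.9, 38.5 and 62.3 CPM in the C48S libraries (1.82 ± 0.15). Both rose in every C48S library. The antagonist Chrd rose (1.81), and the inhibitory Smad6 (-1.12) and the receptor gene Acvr1 (-0.91) fell. Of 26 tested members of the BMP list 8 were higher and 7 lower. The Nodal and TGF-beta list had 14 of 30 higher and 8 lower. Its members Acvr1b, a type I receptor (0.995), Foxh1, the forkhead partner of Smad2 (0.95), and Fst, the activin trap follistatin (1.40), rose, and the co-receptor Tgfbr3 fell (-1.30). In the Notch list 11 of 22 were higher and 5 lower, with 5 at least 2-fold higher and none lower. The ligand Dll1 (1.46), the fringe glycosyltransferase Lfng (2.54) and the ubiquitin ligase genes Dtx1 (1.37) and Dtx3 (1.74) rose. Receptors split, with Notch2 (0.45) and Notch3 (0.68) higher and Notch1 (-0.85) and Notch4 (-0.71) lower. The target Hes1 rose by 0.44, and Hey1 (0.21) did not pass the test.

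Wnt ligands and receptors had 13 of 32 tested members higher and 7 lower. Porcn, which acylates Wnt proteins, was at 39.5 ± 2.21 CPM in WT against 79.0 ± 4.23 CPM in C48S (0.999) and the receptor Fzd5 at 181 ± 4.99 CPM in WT against 347 ± 2.702 CPM in C48S (0.94). Of 17 antagonists and targets 8 were lower and 5 higher. The mesoderm factor T, Brachyury, was at 4.61, 4.53 and 4.01 CPM in the WT libraries and 0.509, 0.107 and 0.621 CPM in the C48S libraries (-3.35 ± 0.35), Sp5 at 32.0, 31.5 and 32.4 CPM in the WT libraries and 3.48, 4.05 and 4.14 CPM in the C48S libraries (-3.04 ± 0.13), and the antagonist gene Dkk1 fell (-3.10). All 3 were lower in each C48S library, whereas Ccnd1 (0.56) and Cdx1 (0.61) rose. Hedgehog genes included lower Gli2 (163 ± 2.26 CPM in WT against 61.1 ± 11.9 CPM in C48S, -1.41 ± 0.093) and Ptch1 (-0.93) and higher Gli1 (1.05), with 3 of 14 higher (5 without C48S replicate 3) and 4 lower. In the Hippo list 9 of 20 were lower and 4 higher, none by 2-fold, among them the coactivator Yap1 (-0.58) and its partner Tead1 (-0.52). For the LIF-STAT3 list 10 of 19 were lower and 7 higher. Pim1 (-1.002), Pim2 (-1.29) and the receptor subunit Il6st (-0.50) fell, and Lifr (0.69) and Cish (1.38) rose.

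Among pluripotency genes the formative list leaned lower, and the naive list went both ways. Formative and primed factors, which mark the step after the naive state, had 14 of 15 tested members lower and 8 at least 2-fold lower (53.3%, median -1.02). Dnmt3a was at 250.2, 257 and 258 CPM in the WT libraries and 53.5, 47.0 and 51.4 CPM in the C48S libraries (-2.33 ± 0.054) and Dnmt3b at 338, 346 and 348 CPM in the WT libraries and 138, 128 and 139 CPM in the C48S libraries (-1.35 ± 0.051). Both de novo DNA methyltransferases were lower in each C48S library. Sox3 (-1.81), Grhl2 (-1.66), Foxd3 (-1.22), N-cadherin, Cdh2 (-1.54), Zic5 (-1.02) and Pou3f1 (-0.84) fell. Dusp6, which this list shares with the ERK list, was its 1 member that rose. The naive list had 6 of 13 higher and 5 lower. Klf4 was at 217, 218 and 201 CPM in the WT libraries and 668, 639.9 and 611 CPM in the C48S libraries (1.59 ± 0.052) and Prdm14, a repressor of Dnmt3b, at 108, 115 and 114 CPM in the WT libraries and 35.2, 34.3 and 36.0 CPM in the C48S libraries (-1.68 ± 0.079). Esrrb (0.45) and the imprint regulator Zfp57 (0.53) rose. Among identity genes Lin28a, which blocks let-7 maturation, was at 52.2, 50.4 and 48.2 CPM in the WT libraries and 159, 151 and 170.0 CPM in the C48S libraries (1.67 ± 0.059), whereas Sall4 (-0.85) and Dppa2 (-1.05) fell. Lin28b rose as well (0.88).

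Other transcription factor lists had called members in both directions, as did all genes tested outside the shifted chromosomes, at 25.2% higher and 27.1% lower. In the POU, SOX and KLF list 9 of 36 were higher and 13 lower, with 5 at least 2-fold lower and 3 higher (5 without C48S replicate 3). Pou2f3 rose from 14.7 to 50.5 CPM, Klf3 from 119 to 234 CPM and Klf6 from 19.7 to 35.3 CPM, and Sox11 fell (-0.67). In the forkhead, GATA, T-box, ZIC and AP-2 list 12 of 47 were higher and 16 lower. Of the Hox and TALE genes 6 of 28 were higher and 3 lower, with the caudal gene Cdx2 at 6.61, 5.29 and 5.21 CPM in the WT libraries and 0.509, 0.852 and 0.207 CPM in the C48S libraries (-3.42 ± 0.31) and Pknox2 lower (-2.32). The other homeobox factors included lower Hesx1 (12.96 ± 2.37 CPM in WT against 1.91 ± 0.237 CPM in C48S) and Six4 (142 ± 5.40 CPM in WT against 66.6 ± 4.39 CPM in C48S) and higher Nkx6-2 (1.92). Of the nuclear receptor and retinoid genes 9 of 38 were higher and 7 lower. Nr2c1 rose (1.79) and Aldh1a2, which makes retinoic acid, fell (-1.97).

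C2H2 zinc finger genes, many of them KRAB repressors of transposable elements, had 85 of 321 tested members higher and 81 lower, and 10 and 25 by at least 2-fold (median 0.0090). On chromosome 4, where they form a cluster of close copies, 17 of 30 were lower and 3 higher, and 9 were at least 2-fold lower. Their sum was at 2162, 2213 and 2162 CPM in the WT libraries and 1369, 1469 and 1185 CPM in the C48S libraries. Zfp981 was at 258 ± 6.64 CPM in WT against 41.6 ± 7.89 CPM in C48S (-2.63 ± 0.085) and Zfp985 at 150.2, 153 and 149 CPM in the WT libraries and 39.0, 43.0 and 32.5 CPM in the C48S libraries (-1.98 ± 0.072). The groups were far apart for both, although reads may be shared between copies. Outside that cluster Zfp951 on chromosome 5 fell (73.7 ± 5.78 CPM in WT against 2.49 ± 0.546 CPM in C48S, -4.86 ± 0.14), as did Zfp809 (-1.15), which binds the primer site of murine retroviruses. Of the 36 genes on chromosome 13 10 were higher and 5 lower, and of the 45 on chromosome 17 16 were higher and 8 lower, against 25.2% higher and 27.1% lower over all genes. Neither group had a rise of 2-fold, and chromosome 17 had 2 falls of that size.

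Among chromatin regulators the Polycomb list had 8 of 22 higher and 10 lower. Among its members Kdm2b, which binds CpG islands, was at 472, 455 and 457 CPM in the WT libraries and 180.3, 180.4 and 216 CPM in the C48S libraries (-1.26 ± 0.054), the corepressor gene Bcor at 186, 185 and 188 CPM in the WT libraries and 86.6, 84.7 and 64.1 CPM in the C48S libraries (-1.24 ± 0.074) and its relative Bcorl1 at 89.6, 79.5 and 82.9 CPM in the WT libraries and 30.2, 25.9 and 20.5 CPM in the C48S libraries (-1.71 ± 0.092). These 3 fell, and none of them had overlapping groups, as was so for 55.5% of all genes tested. Cbx7 (0.60), Bmi1 (0.62) and the PRC2 accessory genes Phf1 (1.01) and Phf19 (1.04) rose, of which Phf1 and Phf19 were just past 2-fold, and no member was without C48S replicate 3. In the DNA methylation and TET list 9 of 16 were higher and 5 lower. The cofactor Dnmt3l was at 124 ± 6.26 CPM in WT against 287 ± 31.4 CPM in C48S (1.21 ± 0.069), against the falls of Dnmt3a and Dnmt3b, and the maintenance enzyme Dnmt1 rose by 0.31. BAF and NuRD subunits had 12 of 30 lower and 6 higher, with Actl6a lower (-0.88) and Smarcd3, a subunit of heart and muscle, at 5.45, 4.70 and 5.42 CPM in the WT libraries and 34.8, 30.2 and 39.9 CPM in the C48S libraries (2.76 ± 0.14). Histone methyltransferase and demethylase genes had 11 of 32 lower and 8 higher, with Kmt2c (-0.97) and Kdm5b (-0.80) lower and Suv39h1 higher (1.18).

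Lineage markers had no common direction. Primitive endoderm markers had 4 of 17 at least 2-fold higher and 3 lower, with Hnf4a and Apoe (168 ± 1.54 CPM in WT against 372 ± 45.2 CPM in C48S) higher and the endocytic receptor Lrp2 (69.3 ± 3.13 CPM in WT against 11.98 ± 1.76 CPM in C48S, -2.52 ± 0.085) and Lama1 (-1.37) lower. Trophoblast markers had 9 of 16 higher and 3 lower. Krt8, a keratin of simple epithelia, was at 2.31, 3.36 and 2.28 CPM in the WT libraries and 9.67, 13.5 and 11.7 CPM in the C48S libraries (2.09 ± 0.16), Cldn4 at 17.2, 18.9 and 16.9 CPM in the WT libraries and 70.8, 68.8 and 72.9 CPM in the C48S libraries (1.997 ± 0.078), and Cdx2 and Gata3 (-1.34) were lower. Neuroectoderm markers had 3 of 14 higher and 6 lower, with Olig2 at 27.8 ± 1.71 CPM in WT against 6.39 ± 0.801 CPM in C48S and Neurog1 at 6.94 ± 0.494 CPM in WT against 27.5 ± 1.27 CPM in C48S. Of 9 mesendoderm markers 3 were higher and 1, T, was lower (2 without C48S replicate 1), and the rise of Eomes (0.54) was not called without C48S replicate 1 or WT replicate 1 or 2. Among fibroblast markers 12 of 21 were higher and 4 lower. Fbn1 (17.1 ± 2.20 CPM in WT against 40.4 ± 1.22 CPM in C48S), Pdgfrb (12.2 ± 0.527 CPM in WT against 28.3 ± 2.28 CPM in C48S) and Bgn (89.3 ± 5.91 CPM in WT against 173 ± 14.9 CPM in C48S) rose, and Dcn (-0.67) and Vim (-0.55) fell. The falls numbered 2 without WT replicate 1 or 3.

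Gamma protocadherins rose as a cluster. Among cadherins and protocadherins, adhesion proteins that give neurons their surface identity, 49 of 98 members were tested. Of these 25 were higher and 5 lower, and 20 (40.8%) were at least 2-fold higher (median 0.57). In a fit of the 6 undifferentiated libraries alone 33 members passed the filter, 21 of them higher, with a median of 1.44, and the others passed it only with the RA libraries included. Of the 21 tested Pcdhg genes 19 were higher and 16 at least 2-fold higher, and their sum was at 55.2, 58.3 and 59.1 CPM in the WT libraries and 141, 136 and 117 CPM in the C48S libraries. Pcdhga9 was at 0.629, 0.336 and 1.41 CPM in the WT libraries and 6.19, 4.48 and 4.65 CPM in the C48S libraries (2.76 ± 0.31, or 3.43 without WT replicate 3) and Pcdhga10 at 2.20, 1.76 and 1.63 CPM in the WT libraries and 7.72, 6.71 and 6.10 CPM in the C48S libraries (1.88 ± 0.23). The C48S libraries were the higher ones for each. Pcdhg transcripts share their constant exons, so reads there do not separate the members. Celsr3, a cadherin of planar polarity, was at 6.72 ± 0.79 CPM in WT against 31.6 ± 1.77 CPM in C48S (2.25 ± 0.12). The classical cadherins Cdh2 and Cdh4 (-2.17) fell.

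Junction, matrix and guidance genes went both ways with large single changes. In the claudin, keratin and junction list 11 of 36 were higher and 11 lower. Perp, of desmosomes and also a p53 target, was at 8.18, 10.2 and 9.87 CPM in the WT libraries and 42.9, 44.96 and 49.7 CPM in the C48S libraries (2.28 ± 0.095), Crb3 (1.61 ± 0.674 CPM in WT against 11.8 ± 1.03 CPM in C48S) and the splicing factor Esrp1 (4.80 ± 0.597 CPM in WT against 15.2 ± 1.85 CPM in C48S) rose, and the connexin gene Gja1 (291 ± 7.86 CPM in WT against 149 ± 17.2 CPM in C48S) fell. Of 67 integrin, collagen and laminin genes 24 were higher and 18 lower, with 14 at least 2-fold lower (20.9%) and 9 higher (13.4%). The laminin chain gene Lama3 was at 77.7, 85.4 and 80.1 CPM in the WT libraries and 8.74, 8.20 and 8.17 CPM in the C48S libraries (-3.27 ± 0.091) and Nid1, which links laminin to collagen, at 408, 404 and 399.6 CPM in the WT libraries and 119.6, 124 and 108 CPM in the C48S libraries (-1.78 ± 0.051). Both fell in all C48S libraries, whereas the integrin genes Itga6 (142 ± 5.85 CPM in WT against 272 ± 16.7 CPM in C48S) and Itga9 (4.29 ± 0.54 CPM in WT against 23.1 ± 2.76 CPM in C48S) rose and Itgav (137 ± 1.64 CPM in WT against 59.2 ± 2.10 CPM in C48S) fell. Of 54 ephrin, semaphorin and receptor genes 21 were higher and 11 lower. The plexin genes Plxnb1 (14.2 ± 1.28 CPM in WT against 49.3 ± 2.29 CPM in C48S) and Plxnb2 (184 ± 5.63 CPM in WT against 384 ± 14.4 CPM in C48S), the co-receptor Nrp2 (10.2 ± 0.417 CPM in WT against 33.9 ± 1.41 CPM in C48S) and Ephb3 (33.9 ± 2.47 CPM in WT against 93.2 ± 5.38 CPM in C48S) rose, and Sema6a (20.5 ± 1.47 CPM in WT against 4.35 ± 0.81 CPM in C48S) and Sema7a (17.3 ± 0.899 CPM in WT against 2.98 ± 0.472 CPM in C48S) fell. Falls of at least 2-fold numbered 8, and 5 without WT replicate 3. Actin and myosin genes had 11 of 29 higher and 10 lower and tubulins and kinesins 17 of 49 higher and 14 lower, with few by 2-fold. Tagln2 (1.245) and Tubb4a (3.60) rose.

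Most tested sodium channel genes were higher. Of 10 tested Scn genes, subunits of voltage-gated sodium channels, 7 were at least 2-fold higher, against 7.0% over all genes. None was called lower, although the lowest change was -1.93. Their sum was at 26.2, 23.3 and 25.2 CPM in the WT libraries and 76.5, 72.6 and 73.1 CPM in the C48S libraries. Scn3a was at 3.15, 3.61 and 3.90 CPM in the WT libraries and 29.4, 26.7 and 25.6 CPM in the C48S libraries (2.94 ± 0.15) and Scn8a at 7.24, 5.79 and 5.31 CPM in the WT libraries and 18.1, 19.18 and 14.99 CPM in the C48S libraries (1.51 ± 0.14). The whole channel list had 22 of 91 tested members higher and 26 lower. In a fit of the 6 undifferentiated libraries alone 58 of them passed the filter. Among the falls Trpm2, a cation channel opened by oxidative stress, was at 11.5, 9.07 and 8.68 CPM in the WT libraries and 0.0849, 0.32 and 0.31 CPM in the C48S libraries (-5.35 ± 0.32), and potassium channel genes had 8 of 48 at least 2-fold lower and 6 higher. The 2-fold falls of the channel list numbered 14, and 9 without C48S replicate 1. G protein-coupled receptors had 79 of 1143 members tested, with 25 lower and 11 higher. In the fit of the 6 libraries alone 48 of these passed the filter, 17 lower and 9 higher, with 11 at least 2-fold lower. Lpar1, a lysophosphatidic acid receptor, was at 176, 184 and 193 CPM in the WT libraries and 26.6, 27.7 and 21.5 CPM in the C48S libraries (-2.86 ± 0.079) and the serotonin receptor Htr5a fell (20.7 ± 2.58 CPM in WT against 2.698 ± 0.451 CPM in C48S). Of their 2-fold falls 19 were found with all libraries and 12 without WT replicate 2. In the Ly6 and surface marker list 9 of 20 were higher and 6 lower. All 4 tested Ly6g6 genes rose, led by Ly6g6e at 10.3 ± 0.958 CPM in WT against 24.1 ± 2.12 CPM in C48S and by Ly6g6f, with 1 count in WT and 125 in C48S (ratio 124, interval 21.9 to 4948). Without WT replicate 1 the fitted Ly6g6f change went from 6.53 to 8.48. Ly6e (-1.22), Cd38 (-1.93) and Icam1 (-1.18) fell.

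**Figure D4:**
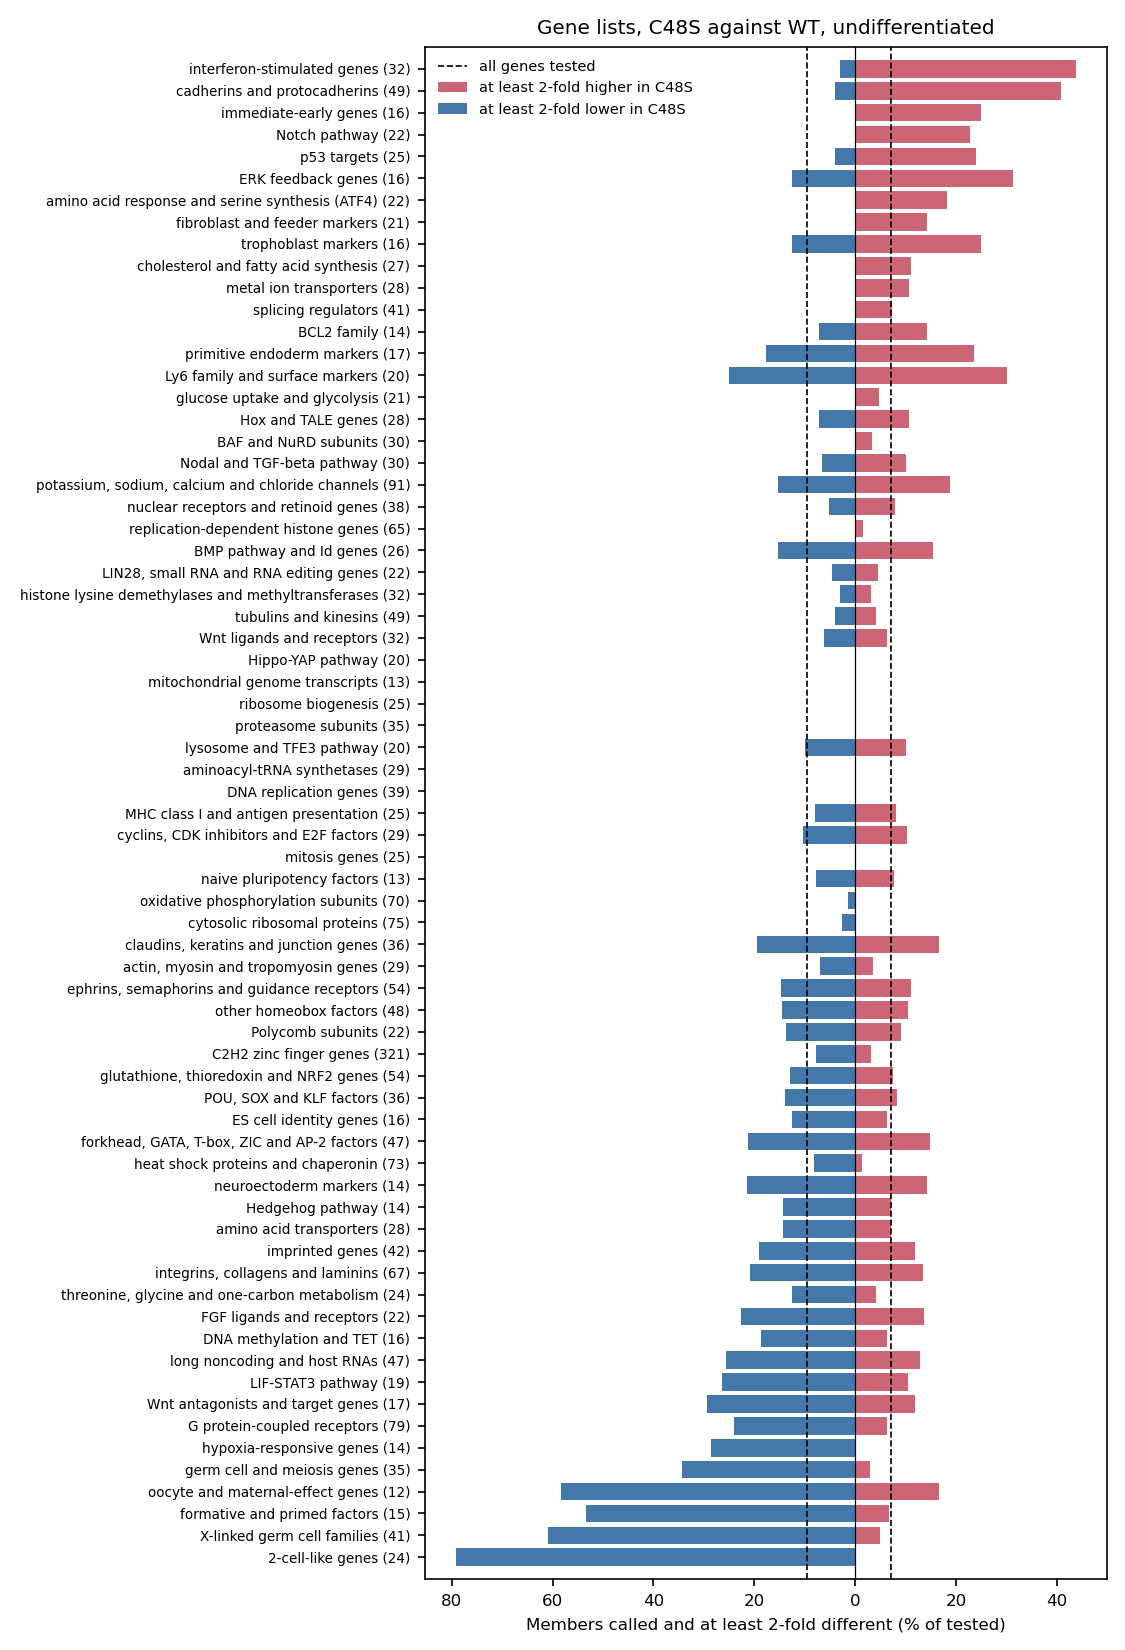
Share of tested members called and at least 2-fold higher (right) or lower (left) in C48S for each list with 12 or more tested members outside chromosomes 6, 8, 11 and Y, with the number tested in brackets. Dashed lines mark the shares over all genes, 7.0% and 9.62%. The 2-cell-like (79.2%), X-linked, oocyte and formative lists have the largest shares lower, and the interferon and cadherin lists the largest higher.

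Genes of the amino acid response were higher. In the list of ATF4 targets, induced when amino acids run short or the endoplasmic reticulum is stressed, 13 of 22 were higher and 3 lower, 4 by at least 2-fold higher (median 0.53). Atf4 itself was at 208, 204 and 186 CPM in the WT libraries and 367, 373 and 438 CPM in the C48S libraries (0.98 ± 0.056, adjusted p = 1.68e-16), and the pseudokinase gene Trib3 at 7.87, 9.57 and 9.76 CPM in the WT libraries and 19.8, 20.7 and 25.7 CPM in the C48S libraries (1.27 ± 0.13). Both were higher in every C48S library, as were Nupr1 (1.45), Atf5 (1.02) and Aldh18a1 of proline synthesis (0.90). Phgdh, the entry enzyme of serine synthesis, fell (182 ± 10.8 CPM in WT against 94.9 ± 14.3 CPM in C48S, -0.94 ± 0.078). Chac1, which degrades glutathione, rose (1.13). Amino acid transporters had 11 of 28 higher and 6 lower. Besides Slc38a5, Slc38a2 (333 ± 3.96 CPM in WT against 545 ± 21.4 CPM in C48S) and the transporter heavy chain Slc3a2 (189 ± 5.91 CPM in WT against 296 ± 12.1 CPM in C48S) rose. The glutamate and cysteine transporter Slc1a1 was at 58.2, 60.8 and 55.7 CPM in the WT libraries and 3.14, 2.88 and 3.41 CPM in the C48S libraries (-4.21 ± 0.13) and Slc43a3, a purine base transporter, at 32.8 ± 1.11 CPM in WT against 3.37 ± 0.557 CPM in C48S, both lower. Among threonine, glycine and one-carbon genes 9 of 24 were higher and 11 lower. Gldc, the glycine decarboxylase, was at 305, 294 and 301 CPM in the WT libraries and 59.1, 58.5 and 57.8 CPM in the C48S libraries (-2.36 ± 0.054), and the folate receptor Folr1 fell (83.2 ± 5.36 CPM in WT against 24.4 ± 0.794 CPM in C48S), while Tdh, threonine dehydrogenase, rose slightly (662 ± 16.6 CPM in WT against 857 ± 20.9 CPM in C48S, 0.37 ± 0.045).

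More redox genes were called lower than higher, but their shares at 2-fold were near those over all genes. In the glutathione, thioredoxin and NRF2 list 54 of 62 members were tested, 24 lower and 14 higher (median -0.12). Over all genes 27.1% were called lower and 25.2% higher. In the list 7 members (12.96%) were at least 2-fold lower, against 9.62% over all genes, and 4 (7.41%) higher, against 7.0%. Prdx6, a peroxiredoxin that uses glutathione, was at 514, 516 and 497 CPM in the WT libraries and 215, 213 and 232 CPM in the C48S libraries (-1.21 ± 0.047). Glrx, a glutaredoxin that reduces mixed disulfides, was at 11.6, 13.4 and 14.1 CPM in the WT libraries and 2.29, 2.45 and 1.34 CPM in the C48S libraries (-2.67 ± 0.21). Both were lower in every C48S library. The 3 Gstp genes, glutathione transferases of close sequence, summed to 135, 118 and 121 CPM in the WT libraries and 33.4, 35.3 and 52.6 CPM in the C48S libraries. Txnip, which binds thioredoxin and limits glucose uptake, was at 86.1, 81.3 and 79.2 CPM in the WT libraries and 287, 293 and 283 CPM in the C48S libraries (1.81 ± 0.051), and the ferritin gene Ftl1 was at 1592 ± 29.4 CPM in WT against 2729 ± 98.8 CPM in C48S (0.78 ± 0.043). Of the metal ion transporters 6 of 28 were higher and 7 lower, with the zinc and iron importer Slc39a14 higher (16.3 ± 1.10 CPM in WT against 59.6 ± 4.27 CPM in C48S) and the zinc exporter Slc30a1 lower (27.9 ± 1.93 CPM in WT against 16 ± 1.74 CPM in C48S).

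Most metabolic lists had called members in both directions, as did all genes tested outside the shifted chromosomes, at 25.2% higher and 27.1% lower. In the glycolysis list 7 of 21 were lower and 4 higher, and 11 were lower without C48S replicate 3. Pfkfb3, which makes the activator of phosphofructokinase, fell (-0.97), and Pdk1, which restrains pyruvate dehydrogenase, was at 33.9, 29.6 and 28.0 CPM in the WT libraries and 103, 106 and 113 CPM in the C48S libraries (1.82 ± 0.067). Hypoxia-responsive genes had 7 of 14 lower and 3 higher, and 4 (28.6%) were at least 2-fold lower, against 9.62% over all genes, with Vegfa at 46.1 ± 4.73 CPM in WT against 20.2 ± 1.94 CPM in C48S and Bnip3 at 82.5 ± 5.61 CPM in WT against 39.2 ± 1.43 CPM in C48S. Nuclear-encoded subunits of oxidative phosphorylation had 13 of 70 lower and 11 higher, with 22 lower without C48S replicate 3 and 7 higher without WT replicate 1 or 3. Of 13 transcripts of the mitochondrial genome 4 were lower, a share close to that over all genes, 9 were not called and none was higher. Among the lower was mt-Co1 at 8472, 8390.4 and 8615 CPM in the WT libraries and 5833, 6782 and 4416 CPM in the C48S libraries (-0.58 ± 0.13). The call of mt-Nd3 (-0.66) was lost without any 1 of 4 libraries (WT replicates 1 and 2, C48S replicates 1 and 2). Cholesterol and fatty acid genes had 13 of 27 higher and 8 lower, 3 by at least 2-fold higher, with Mvk (1.16) and Lss (0.82) higher and Hmgcs1 (-0.64) lower. Lysosomal and TFE3 pathway genes had 8 of 20 lower and 5 higher, 2 in each direction by at least 2-fold. Rragd, a GTPase of nutrient sensing, fell (60.9 ± 2.78 CPM in WT against 21.8 ± 3.71 CPM in C48S), while Neu1 (7.44 ± 0.393 CPM in WT against 20.4 ± 3.89 CPM in C48S), Ctsz (24.5 ± 1.53 CPM in WT against 61.9 ± 8.53 CPM in C48S) and Tfeb (40.3 ± 2.20 CPM in WT against 78.4 ± 10.4 CPM in C48S) rose.

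Heat shock, proteasome and ribosome genes leaned lower by small amounts, with proteasome and ribosome sums of C48S replicate 3 nearer to WT. Calls are more frequent among abundant genes, with 68.5% of all genes above 100 CPM called in either direction. In the heat shock and chaperonin list 35 of 73 tested members were lower and 14 higher (median -0.18), with 6 at least 2-fold lower. The constitutive chaperone Hspa8 was at 5576, 5702 and 5494 CPM in the WT libraries and 2914, 2906 and 2566 CPM in the C48S libraries (-1.0 ± 0.046, adjusted p = 1.91e-19), Hsph1 at 662, 673 and 669 CPM in the WT libraries and 289, 276 and 274 CPM in the C48S libraries (-1.26 ± 0.045) and Dnajb6 at 479, 486 and 477 CPM in the WT libraries and 151, 141 and 142 CPM in the C48S libraries (-1.73 ± 0.051). Each was lower in all 3 C48S libraries, and all 6 tested subunits of the chaperonin that folds actin and tubulin were lower. Summed Hsp genes were at 19222, 19630.0 and 18951 CPM in the WT libraries and 13538, 13581 and 13918 CPM in the C48S libraries. Proteasome subunits had 20 of 35 lower and 5 higher, none by 2-fold with all libraries and 2 of the rises without C48S replicate 2 (median -0.24). The Psmc and Psmd genes summed to 2823, 2807 and 2728 CPM in the WT libraries and 2371, 2380 and 2732 CPM in the C48S libraries. Replicate 3 was inside the WT range. The activator genes Psme1 (35.7 ± 1.94 CPM in WT against 67.5 ± 6.24 CPM in C48S) and Psme2 (20.6 ± 0.677 CPM in WT against 41.1 ± 6.30 CPM in C48S), which interferon induces, were the largest rises. Cytosolic ribosomal proteins had 42 of 75 lower and 2 higher (median -0.19), with 64 lower without C48S replicate 3, and 4 and 5 higher without C48S replicates 1 and 2. Summed Rpl genes were at 27143, 27351 and 26571 CPM in the WT libraries and 22687, 22216 and 26505 CPM in the C48S libraries, so that replicate 3 lay close to WT. The Rps genes summed to 21828, 22059 and 21272 CPM in the WT libraries and 19288, 18877 and 23317 CPM in the C48S libraries. Replicate 3 was above every WT library there. Both members that fell at least 2-fold, Rpl39l and Rpl10l (29.5 ± 1.66 CPM in WT against 8.01 ± 2.59 CPM in C48S), are autosomal paralogs of X-linked genes enriched in the testis. Ribosome biogenesis genes had 6 of 25 lower and 2 higher (10 and 4 without C48S replicate 3, and 4 higher without C48S replicate 1), and aminoacyl-tRNA synthetases 7 of 29 lower and 9 higher.

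Histone genes of the replication-dependent clusters were higher by small amounts. Of 65 tested members 34 were higher and 2 lower (median 0.34). The H1 genes summed to 1636, 1568 and 1519.9 CPM in the WT libraries and 2004, 1905 and 3075 CPM in the C48S libraries, and the H3 genes to 1775, 1645 and 1642 CPM in the WT libraries and 2324, 2267 and 2935 CPM in the C48S libraries. Replicate 3 was the highest library for both. The H2B genes summed to 1689, 1724 and 1562 CPM in the WT libraries and 1982, 2025 and 1766 CPM in the C48S libraries, with replicate 3 the lowest of the C48S libraries. Most of these transcripts lack a poly(A) tail and were measured here because libraries were made by depletion of ribosomal RNA. Single histone genes are close copies and uncertain. The lower members numbered 6 without C48S replicate 3 and 1 without WT replicate 3. DNA replication genes had 15 of 39 higher and 12 lower and mitosis genes 6 of 25 higher and 7 lower (11 lower with RLE scaling), none by 2-fold. Rrm2, of ribonucleotide reductase, rose (452 ± 24.6 CPM in WT against 718 ± 20.4 CPM in C48S). Among cyclins, inhibitors and E2F factors 12 of 29 were higher and 9 lower. Mycl, a MYC family member placed in that list, was at 88.6, 95.2 and 94.8 CPM in the WT libraries and 6.79, 7.46 and 6.62 CPM in the C48S libraries (-3.74 ± 0.10) and Ccnd3 at 429, 431 and 423 CPM in the WT libraries and 197, 194 and 221 CPM in the C48S libraries (-1.07 ± 0.051), both lower, while the repressors E2f7 (26.2 ± 0.987 CPM in WT against 58.1 ± 3.74 CPM in C48S) and E2f8 (37.9 ± 3.68 CPM in WT against 73.1 ± 5.48 CPM in C48S) rose.

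More targets of p53 were higher than lower. Of 25 tested members 16 were higher and 4 lower, 6 and 1 by at least 2-fold (24.0% higher, median 0.34). Cdkn1a, the CDK inhibitor p21, was at 258, 258 and 256 CPM in the WT libraries and 339, 333 and 368 CPM in the C48S libraries (0.43 ± 0.047) and the BH3-only gene Pmaip1 (Noxa) at 46.5, 50.9 and 44.9 CPM in the WT libraries and 105, 98.8 and 125 CPM in the C48S libraries (1.20 ± 0.072). The death receptor gene Fas (1.41) rose, Mdm2 rose slightly (0.24), and Bbc3 (Puma, 0.08) did not pass the test. Sesn1 (53 ± 4.84 CPM in WT against 20.3 ± 2.31 CPM in C48S) and the nuclease Aen (-0.95) fell. In the BCL2 family 4 of 14 were higher and 5 lower, with the proapoptotic Hrk higher (2.50) and the prosurvival Bcl2l2 (-1.16) and Mcl1 (-0.39) lower.

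Imprinted genes and long noncoding RNAs changed in both directions. In the imprinted list 42 of 46 members were tested, 19 lower and 13 higher, 8 and 5 by at least 2-fold. The maternally expressed RNAs of the Dlk1-Dio3 locus on chromosome 12 fell: Meg3 was at 79.9, 65.5 and 81.3 CPM in the WT libraries and 15.6, 18.4 and 16.1 CPM in the C48S libraries (-2.18 ± 0.09), Rian at 105, 109 and 113 CPM in the WT libraries and 15.5, 19.5 and 16.2 CPM in the C48S libraries (-2.68 ± 0.069) and Mirg was at 11.7 ± 0.721 CPM in WT against 1.63 ± 1.22 CPM in C48S (-2.87, or -3.56 without C48S replicate 2). Each C48S library was far below each WT library, while Dio3 of the same locus rose (1.81). On distal chromosome 7, Cdkn1c (1.23), Phlda2 (5.04 ± 0.82 CPM in WT against 15.6 ± 2.04 CPM in C48S), Slc22a18 (2.36) and Igf2 (0.546 ± 0.2 CPM in WT against 3.45 ± 0.243 CPM in C48S) rose and the antisense RNA Kcnq1ot1 fell (-0.81). In the list of noncoding and host RNAs 47 of 54 were tested, 17 lower and 13 higher, 12 and 6 by at least 2-fold. Platr genes, pluripotency-associated transcripts, had 7 of 20 at least 2-fold lower and 2 higher. Platr3 (chr2:135490827-135493983) was at 22.2, 23.3 and 26.1 CPM in the WT libraries and 0.849, 1.28 and 1.14 CPM in the C48S libraries (-4.46 ± 0.20), and Platr14 was at 113, 103 and 104.2 CPM in the WT libraries and 16.5, 14.8 and 19.3 CPM in the C48S libraries (-2.66 ± 0.084). Neat1, the scaffold RNA of paraspeckles (chr19:5874736-5895506), was at 103.5, 74.2 and 95.2 CPM in the WT libraries and 166, 228 and 201 CPM in the C48S libraries (1.13 ± 0.18), and Ftx of the X-inactivation centre rose (2.63). Outside the lists Ptprtos had 642 counts in WT and 3 in C48S (ratio 215, interval 73.3 to 1046), with a fitted change of -7.59, or -8.34 without C48S replicate 1. Mir124a-1hg, a host of the neuronal microRNA miR-124, was at 4.93, 3.44 and 4.88 CPM in the WT libraries and 18.5, 22.5 and 18.6 CPM in the C48S libraries (2.18 ± 0.16). Over all 1680 long noncoding genes tested, 8.21% were at least 2-fold higher and 9.88% lower. Splicing regulators had 12 of 41 higher and 8 lower (13 lower without C48S replicate 3), and the neuronal Nova2 (5.27 ± 1.09 CPM in WT against 25.6 ± 3.21 CPM in C48S), Mbnl3 (2.83 ± 0.378 CPM in WT against 13.4 ± 2.12 CPM in C48S) and the epithelial Esrp1 were at least 2-fold higher.

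The comparison after RA used other libraries of both lines. Of the 1028 genes at least 2-fold higher before RA, 524 (51.0%) were also called higher after it, against 26.3% of all genes, and 78 were called lower. Of the 1413 at least 2-fold lower, 771 (54.6%) were called lower after RA, against 24.2%, and 141 higher. Among the 30 genes of largest change 26 were called in the same direction. Usp26 (-5.42), 1700013H16Rik (-6.90), Neb (-4.86) and Xlr3b (-4.22) stayed far lower in C48S, and Spry4 stayed higher (4.19). Foxd1 (-0.12), Csrnp3 (0.04), Trim43a (0.74) and Dcdc2a (-0.87) did not pass the test after RA. Other genes described above had another direction or no call. Dnmt3a was higher in C48S after RA (0.79), as were Cdx2 (3.68) and Klf4 (2.77), and Brdt (-0.05) and Hormad1 (0.085) did not pass the test. Ddx58 was lower (-0.26) and Tapbp too (-0.56). Meg3 (-5.21), Rian (-5.63), Zfp951 (-4.45) and Zfp981 (-2.18) were again lower.

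**Figure D5:**
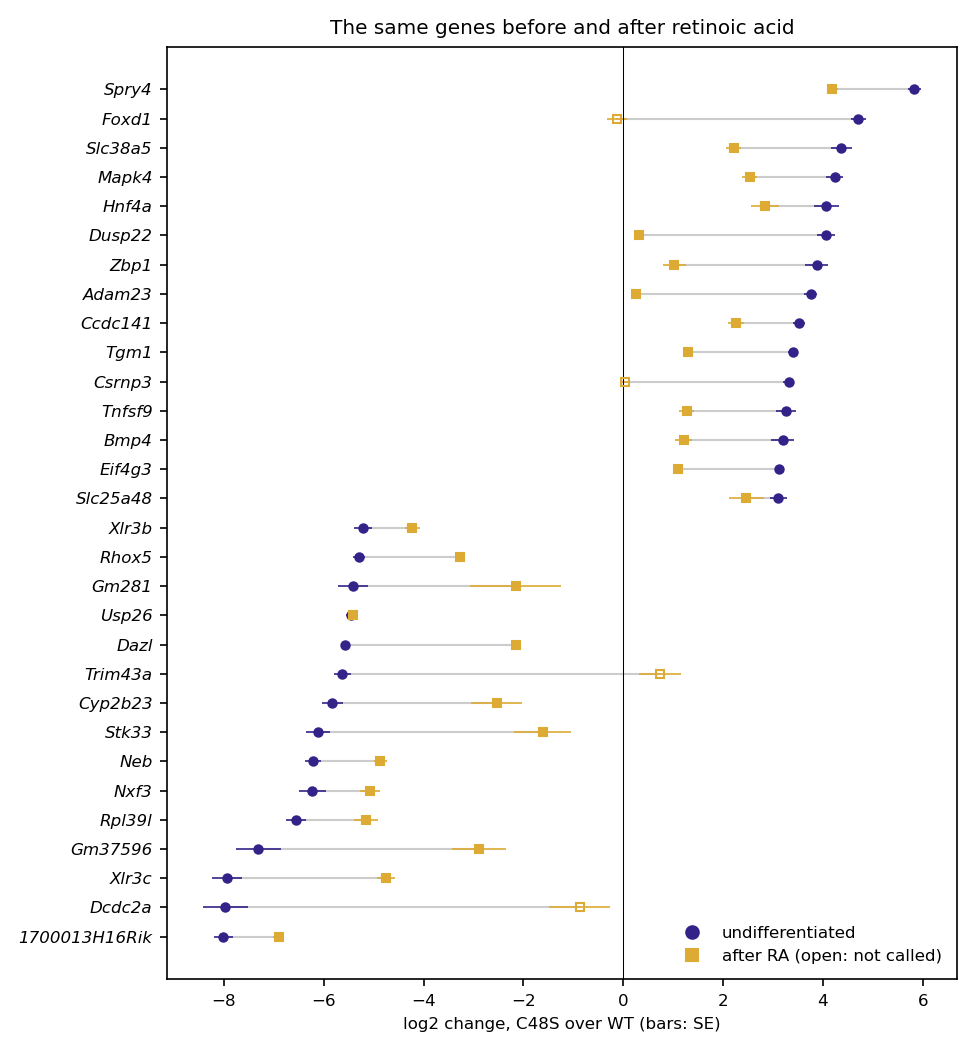
Log2 change of C48S over WT for the 30 genes of largest change before RA, in undifferentiated cells (circles) and after RA (squares, open where not called). Bars are standard errors, computed from the F statistic, which can be too small where counts are few. All 30 are smaller in size after RA, and Foxd1, Csrnp3, Trim43a and Dcdc2a were not called there. The genes were chosen for their size before RA.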

How the data were processed

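The authors deposited raw read counts per gene for each library (total RNA depleted of ribosomal RNA), made with featureCounts 1.6.3 at strand option 2 on Ensembl 104 (GRCm39), per the file headers. Reads were aligned with STAR 2.7.9a to mm39, per the submitters' processing notes. Symbols came from a name table by identifier (52083 of 55416 matched, names only).

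Genes were kept by edgeR's filterByExpr (minimum count 10), leaving 17940 of 55416. All 12 libraries entered 1 edgeR 4.0.16 fit in R 4.3.3 (TMM scaling, robust quasi-likelihood, 8 residual degrees of freedom), since the 4 groups share 1 estimate of the spread. P-values were adjusted by Benjamini-Hochberg over all genes tested, with a threshold of 0.05. Counts by list leave out chromosomes 6, 8, 11 and Y. Promoters were RefSeq windows (GRCm38.p6) matched by symbol, with motifs searched on both strands.

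Named genes were Pou5f1, the 15 largest rises and falls of protein-coding genes and the 5 of long noncoding genes (called, groups not overlapping, at least 10 CPM in the higher group), in each list the 6 of smallest adjusted p, members described by role, and cell type markers. Some genes that the rule selects are not reported here. The members and lists were chosen with earlier results of these data known, and the motifs and shown promoters after values were seen. Gene lists overlap.

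On simulated counts of this comparison (17526 genes, 50 changed at each fold) the fit called 38% of genes changed 1.25-fold, 54% at 1.5-fold, 94% at 2-fold and 96% at 4-fold, and 1.40% of 143 calls were unchanged genes. The changed genes were drawn from those with a WT mean of at least 1 CPM. Far fewer genes were changed than were called in the data, and no simulated library stood apart. These shares may therefore not carry over to the data. Alternatives were RLE scaling, TMM from genes outside the shifted chromosomes, DESeq2 1.42.0, other low-count filters, the 6 libraries alone, a 1.5-fold null, a replicate block and each library left out. The list counts under these settings were added after seeing the data.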

Additional observations from a re-analysis of the deposited data

Results flagged for a closer look

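The difference between the lines was tested before against after RA with the interaction term of the edgeR fit, and it passed an adjusted p under 0.05 in 24 of the 30 genes of largest change before RA. Each value below is the log2 change of C48S over WT after RA minus that before RA, so a negative value for a gene that was higher in C48S is a smaller difference after RA. The genes were chosen for their size before RA, which favours a smaller value in the second comparison.

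Among genes that were higher in C48S before RA, the signalling genes Spry4 (-1.64), Mapk4 (-1.70), Dusp22 (-3.75), Bmp4 (-1.98) and Tnfsf9 (-1.999) were among the 24. The transcription factor genes Foxd1 (-4.83) and Hnf4a (-1.23), the nuclear protein gene Csrnp3 (-3.27) and the nucleic acid sensor Zbp1 (-2.86) differed too. So did the glutamine transporter Slc38a5 (-2.16), Adam23 (-3.50), Ccdc141 (-1.26), Tgm1 (-2.09) and Eif4g3 (-2.02).

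Among genes that were lower in C48S before RA, the germ cell genes Dazl (3.43), Rhox5 (2.04), Xlr3b (0.99) and Xlr3c (3.18) differed. Trim43a (6.36), Cyp2b23 (3.29), Stk33 (4.51), Neb (1.35), Gm37596 (4.43) and Dcdc2a (7.10) differed too. The values of Xlr3c, Gm37596 and Dcdc2a rest on 2, 2 and 1 counts in C48S before RA and depend on the prior count of the fit.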

How the results depend on the processing

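With a 1.5-fold null in place of no change, 3605 genes were called in place of 9970, 2587 in place of 7685 outside chromosomes 6, 8, 11 and Y, and 638 in place of 1295 of the 2-fold genes had the same direction after RA, since that null asks for a larger change. The other counts over all genes stayed within 1.5 times under every alternative run. Without 1 library, between 6966 and 7825 genes were called outside those chromosomes, and DESeq2 called 7192. With the replicate number as a replicate block 7592 were called. Whether the numbers pair the samples is not stated. Same-numbered libraries had correlations of deviations of -0.053, 0.015 and -0.045, and with 3 libraries per group such values cannot exclude a pairing. Counting each named gene once per alternative, no change reversed, 12 gained a call and 167 lost one, 149 of these under the 1.5-fold null. Of list counts of members at least 2-fold higher or lower, 98 of 1988 moved by over 1.5 times. Lists with no such member under both settings counted as the same. Counts of all called members were not in that tally. Without C48S replicate 3, counts of all called members moved for lists that include ribosomal, oxidative phosphorylation, glycolysis, splicing and histone genes. The 2-fold count of Polycomb genes moved too. These are given beside the lists. Depth limits genes under 1 CPM, and 1 derived line limits all results to that line.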
